A study of Mus musculus with 12 samples.

Results

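The genes described here are 7 markers of striatal interneurons, chosen by name from the 21492 genes of the deposited table: Chat, Slc5a7 and Slc18a3 for cholinergic cells, Pvalb for fast-spiking GABAergic cells, and Sst, Npy and Nos1 for a further GABAergic class. All 7 were present, and all 7 passed the filter on low values in every comparison. Their levels were read in striatum from male C57BL/6J mice at postnatal day 70, either wild type (WT) or carrying a Shank3 transgene (TG). For each genotype there were 3 libraries of synaptosomal input RNA, from a preparation enriched in pinched-off nerve terminals, and 3 of polysome RNA, the part bound to groups of ribosomes. The sources used here give neither the transgene's promoter nor its line, and say nothing of pooled animals. Nor do the labels tie each library to its own mouse, so the p-values measure only the spread between these libraries.

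Interneurons are a small minority of striatal neurons, among the far more numerous medium spiny projection neurons. Cholinergic interneurons make acetylcholine with choline acetyltransferase, refill the substrate through a choline transporter and load vesicles with a dedicated carrier. Parvalbumin cells inhibit spiny neurons with brief, fast spiking, and another class releases somatostatin and neuropeptide Y and makes nitric oxide. Neurons expressing Sst, Npy or Pvalb also occur in cortex.

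Slc18a3, the vesicular acetylcholine transporter, lies inside Chat, choline acetyltransferase, an arrangement known as the cholinergic gene locus. On GRCm38 with the GENCODE M21 annotation, Chat (ENSMUSG00000021919) occupies chr14:32408203-32465989 on the minus strand. Slc18a3 (ENSMUSG00000100241) is a single exon at chr14:32462438-32464850 on the same strand. It falls within 1 intron of 4 of the 8 annotated Chat transcripts and overlaps no Chat exon. Reads from unspliced Chat RNA over that intron would therefore carry Slc18a3 sequence and cannot be told apart from Slc18a3 reads.

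**Figure D1:**
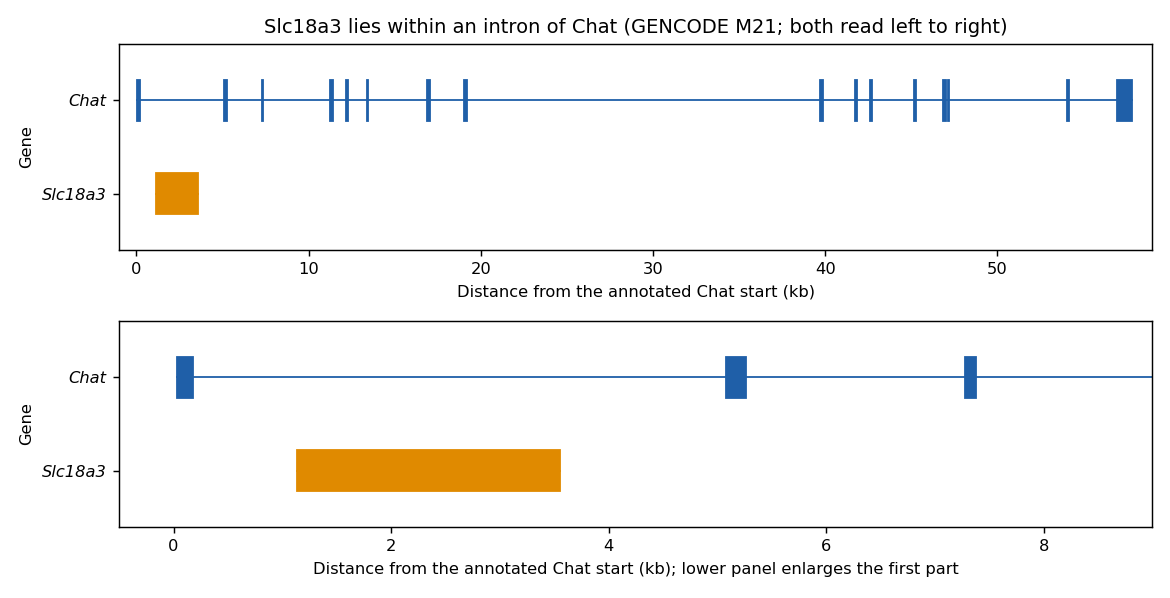
Exons of the Chat-201 transcript (blue) and of Slc18a3 (orange) by distance in kb from the annotated Chat start, with the first part enlarged in the lower panel. Slc18a3 starts 1139 bases after the Chat start and sits wholly within the first drawn Chat intron, which is 4893 bases long.

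The sequences before the RefSeq starts of 4 members (GRCm38.p6) are shown because Chat and Slc18a3 share a locus, and because Sst and Npy moved together across libraries. Each runs 5′ to 3′ on the gene's strand and ends at the base before the start. Capitals mark TGACG, the core of the cyclic AMP response element (CRE), on either strand, and the full element TGACGTCA where present.
Chat, chr14:32465910-32466159, minus strand: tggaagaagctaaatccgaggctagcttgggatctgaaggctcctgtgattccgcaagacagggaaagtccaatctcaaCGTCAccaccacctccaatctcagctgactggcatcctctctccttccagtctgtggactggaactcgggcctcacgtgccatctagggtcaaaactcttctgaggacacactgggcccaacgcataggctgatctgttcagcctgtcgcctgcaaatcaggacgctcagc
Slc18a3, chr14:32464851-32465100, minus strand: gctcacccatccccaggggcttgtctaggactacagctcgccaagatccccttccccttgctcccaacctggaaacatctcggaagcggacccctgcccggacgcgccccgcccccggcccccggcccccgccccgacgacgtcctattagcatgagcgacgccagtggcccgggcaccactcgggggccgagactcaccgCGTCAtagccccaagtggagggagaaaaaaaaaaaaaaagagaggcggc
Sst, chr16:23890845-23891094, minus strand: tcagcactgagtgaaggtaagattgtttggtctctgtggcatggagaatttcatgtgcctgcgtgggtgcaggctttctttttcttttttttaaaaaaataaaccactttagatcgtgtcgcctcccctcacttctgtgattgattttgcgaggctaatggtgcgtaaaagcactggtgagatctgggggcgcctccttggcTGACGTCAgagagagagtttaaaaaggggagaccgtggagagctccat
Npy, chr6:49822460-49822709, plus strand: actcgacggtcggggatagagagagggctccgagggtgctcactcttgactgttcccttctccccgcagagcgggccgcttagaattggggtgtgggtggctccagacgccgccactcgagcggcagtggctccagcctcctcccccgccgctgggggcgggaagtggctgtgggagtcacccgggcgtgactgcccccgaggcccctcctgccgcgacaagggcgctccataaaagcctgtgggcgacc

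The Sst window held the full CRE, starting 48 bases before the start, which 1.55% of 32851 RefSeq promoter windows of that length held on either strand. Chat, Slc18a3 and Nos1 each held the core once, read as CGTCA on the printed strand, at 171, 49 and 130 bases before the start. The core, which overlaps the full element, was present in 17.8% of windows. The Npy window had no TGACG. It had 1 GC box (GGGCGG, in 32.7% of windows) at 95 bases and 1 CCAAT box on the opposite strand (33.8% of windows) at 166 bases. RefSeq starts can differ from the GENCODE gene starts printed here. They lay 80 bases downstream for Chat, 114 for Sst and 85807 for Nos1, whose window is inside the GENCODE gene, and coincided for Slc18a3 and Npy. These are letter matches on either strand and say nothing of binding.

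By level per kb of exonic length, with error as SD over 3 libraries, Sst and Npy stood far above the other members. Sst had 24948 ± 2952 normalized estimated counts per kb in WT input, which placed it at rank 34 of 16805 coding genes, and 32990 ± 3215 in WT polysome. Npy had 12236 ± 499.9 and 13706 ± 1375 in the same groups. Pvalb followed at 844 ± 185 in WT input and 1209 ± 221 in WT polysome. Slc5a7 had 654 ± 273 in WT input, which did not differ from Pvalb beyond their spread. Nos1 (244 ± 25.5), Slc18a3 (204 ± 40.2) and Chat (159 ± 82.1) came last there. Those 3 overlapped one another in WT input, and their order depended on the length used. Divided by the longest coding transcript, the values were 269 for Nos1, 262 for Chat and 204 for Slc18a3.

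**Figure D2:**
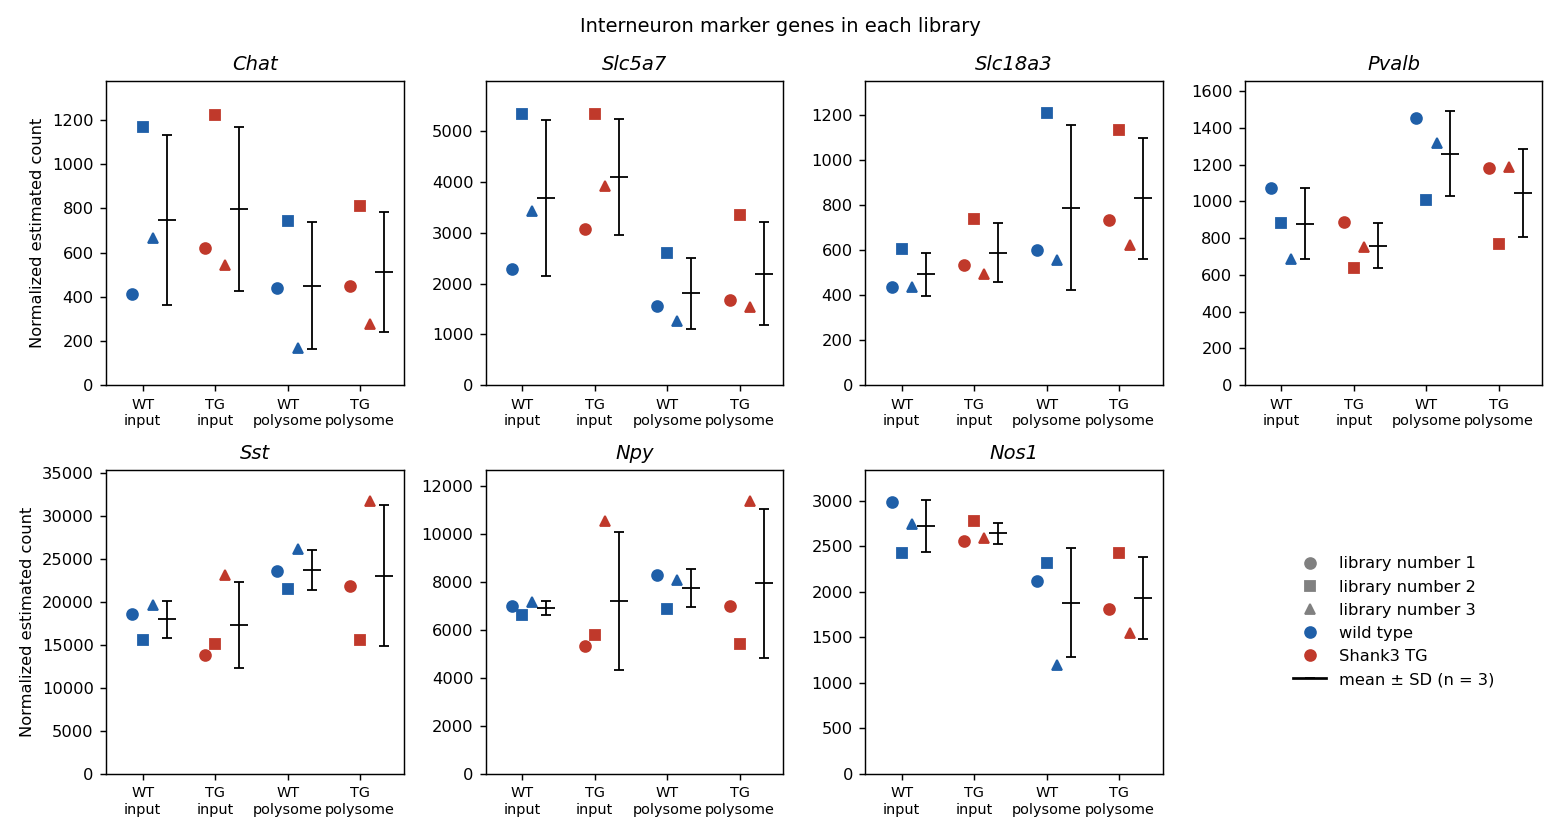
Normalized estimated counts of the 7 members in each of the 12 libraries, by genotype and fraction, with the mean of each group. Sst in WT and Nos1 in both genotypes are the comparisons in which the input and polysome libraries do not overlap, while the TG and WT libraries overlap for every member in both fractions.

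As a check of the labels, Shank3 was higher in TG than in WT in each of the 3 library numbers and in both fractions. The log2 difference was 1.57 ± 0.49 (SE) in input and 1.53 ± 0.52 in polysome. The TG and WT libraries of Shank3 overlapped in both fractions, and limma's test without a block called it in neither. With the library number as a block, its limma adjusted p was 0.0631 in input and 0.0205 in polysome. A gene that did not pass between genotypes may therefore still differ. Markers of medium spiny neurons were abundant. Their 17 genes summed to 308949 to 740154 normalized counts per library, against 31543 to 138585 for 11 markers of cortical excitatory neurons. From the spacing of low values, a single read was estimated at 1.26 to 1.80 normalized counts in input and 0.611 to 0.838 in polysome. That would put the depth at about 62.5 to 85.8 M and 77.1 to 102.4 M reads. The estimate is rough, as only 32.3% to 45.9% of low values lay within 0.1 of whole reads. By this estimate the least covered member was Chat, with about 230 reads in its lowest library, WT polysome 3. Libraries carry a number from 1 to 3 in every group, and those of one number deviated together from their group means. For that reason results fitted with the number as a block stand beside the unblocked ones where they change a call.

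The first question was how the markers divide between polysome and input RNA. In limma's test without a block, 0 of 7 members passed an adjusted p of 0.05 in either genotype, against 14.0% of 16962 genes in WT (5.36% higher and 8.59% lower in polysome) and 18.1% in TG (8.19% higher and 9.86% lower). At an unadjusted p under 0.05 there were 3 members in WT (Slc5a7, Pvalb and Nos1) and 1 in TG (Slc5a7), beside 30.2% of all genes in WT and 32.8% in TG. With the number as a block, 3 members passed in WT, 2 higher and 1 lower, where 29.8% of all genes passed (13.9% higher and 15.9% lower). In TG 2 passed, 1 in each direction, where 33.2% of all genes passed (16.7% higher and 16.6% lower). Slc5a7 was lower in polysome RNA and Slc18a3 higher in both genotypes, and Pvalb was higher in WT. The cause of a lower level in polysome than in input was not tested. Between genotypes or library numbers, fewer cells of a type and less RNA per cell cannot be told apart in bulk samples.

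Slc5a7, the high-affinity choline transporter of the terminal membrane (ENSMUSG00000023945, chr17:54273590-54299034, minus strand), had 2292, 5338 and 3437 normalized counts in WT input libraries 1 to 3 and 1560, 2600 and 1262 in WT polysome. In TG the values were 3071, 5334 and 3924 in input and 1684, 3360 and 1541 in polysome. Polysome was lower than input for each number in both genotypes, although the groups overlapped because library 2 was high throughout. The log2 difference was -1.01 ± 0.37 (SE) in WT, with a limma adjusted p of 0.0881 without the block and 0.00637 with it. In TG it was -0.96 ± 0.37, with limma adjusted p of 0.0932 and 0.00596. With all libraries numbered 2 left out, the blocked limma adjusted p was 0.0679 in WT and 0.0467 in TG. It stayed under 0.05 in both genotypes without number 1 or number 3. Without TG polysome 2 alone, Slc5a7 also passed without a block in TG, with a limma adjusted p of 0.0315.

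Chat had 410, 1169 and 666 normalized counts in WT input and 440, 743 and 169 in WT polysome. In TG it had 622, 1222 and 544 in input and 450, 812 and 278 in polysome. Library 2 was the highest in every group, and polysome and input overlapped in both genotypes. The differences of -0.84 ± 0.55 in WT and -0.67 ± 0.55 in TG did not pass, with blocked limma adjusted p of 0.0688 and 0.124. The WT ratios scattered widely by number, at log2 0.10, -0.65 and -1.97. With number 1 left out, the blocked WT difference was -1.31, with a limma adjusted p of 0.0292.

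Slc18a3 had 436, 603 and 434 normalized counts in WT input and 598, 1209 and 556 in WT polysome. The TG values were 531, 738 and 495 in input and 732, 1134 and 622 in polysome. Each number had more in polysome than in input, with overlap between the groups. The log2 difference was 0.60 ± 0.31 in WT and 0.47 ± 0.31 in TG, with blocked limma adjusted p of 0.0197 and 0.0432. Both calls held with number 3 left out. They were lost without number 1 (limma adjusted p 0.0666 in WT, 0.154 in TG) and without number 2 (0.177 and 0.166).

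The 3 cholinergic genes can also be set against one another within each library. The ratio of Slc18a3 to Chat, taken on values not corrected for length and read only for its change between fractions, was 0.516 to 1.06 over the 6 input libraries and 1.36 to 3.28 over the 6 polysome libraries. Slc18a3 relative to Slc5a7 was 0.113 to 0.190 in input and 0.337 to 0.465 in polysome. Neither ratio overlapped between fractions, and both were higher in polysome in 6 of 6 numbered pairs. Slc18a3 was higher and Slc5a7 lower in polysome at each number, and Chat was lower except at WT number 1. The direction of these ratios therefore largely restates the values of the single genes. The share of other gene pairs that separate in this way was not computed. Chat relative to Slc5a7 overlapped, at 0.139 to 0.229 and 0.134 to 0.286. The ratios were chosen after the values were seen, so they are a description and carry no test.

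**Figure D3:**
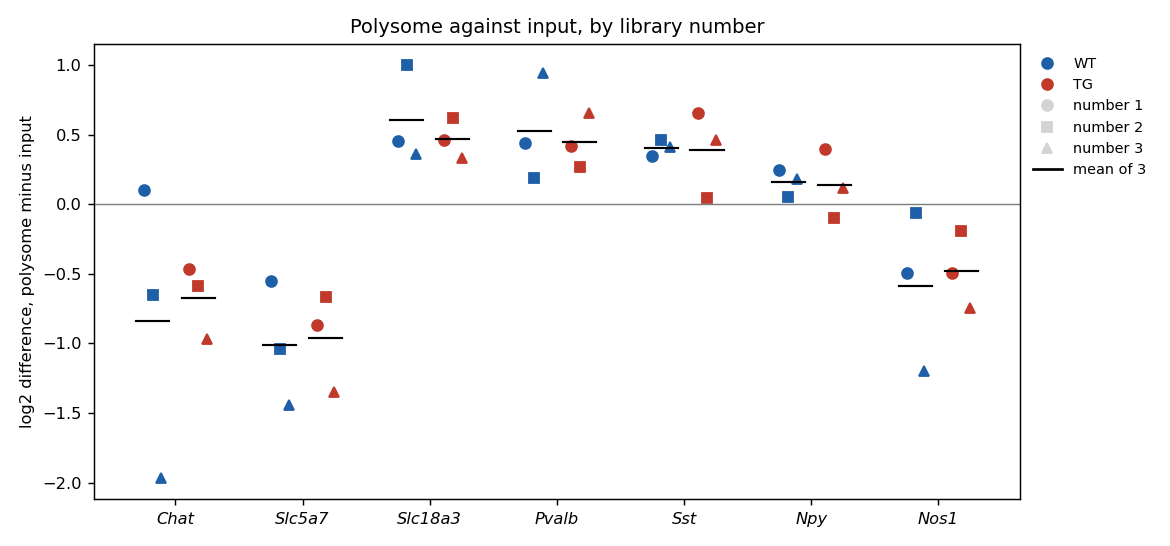
Log2 ratio of polysome to input for each member by library number, in WT and TG, with the mean of 3. Slc5a7 lies below 0 and Slc18a3 above 0 at every number, whereas Chat in WT runs from 0.10 to -1.97.

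Pvalb, the calcium buffer of fast-spiking cells (ENSMUSG00000005716, chr15:78191114-78206400, minus strand), had 1071, 880 and 685 normalized counts in WT input and 1454, 1005 and 1318 in WT polysome. In TG it had 885, 637 and 753 in input and 1180, 767 and 1188 in polysome. Polysome was above input at each number, and the groups overlapped. The log2 difference was 0.52 ± 0.23 in WT, with a limma adjusted p of 0.147 without and 0.0368 with the block, and 0.45 ± 0.23 in TG, with a blocked limma adjusted p of 0.0589. The WT call was lost whichever number was left out, with limma adjusted p of 0.12, 0.0829 and 0.136.

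Sst, the somatostatin precursor (ENSMUSG00000004366, chr16:23889573-23890958, minus strand), had 18645, 15608 and 19709 normalized counts in WT input and 23665, 21530 and 26161 in WT polysome. In TG it had 13883, 15124 and 23124 in input and 21855, 15576 and 31838 in polysome. The WT groups did not overlap, as in 17.7% of all genes in that direction, while the TG groups did (17.6% of all genes were without overlap in that direction). The log2 difference was 0.41 ± 0.26 in WT and 0.39 ± 0.26 in TG. Blocked limma adjusted p-values were 0.0508 and 0.0556.

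Npy, the neuropeptide Y precursor (ENSMUSG00000029819, chr6:49822710-49829507, plus strand), had 6999, 6613 and 7164 normalized counts in WT input and 8301, 6866 and 8106 in WT polysome. The TG libraries had 5328, 5809 and 10549 in input and 7022, 5425 and 11405 in polysome. The groups overlapped in both genotypes, and TG library 3 was the highest in each fraction. The log2 differences were 0.16 ± 0.28 in WT and 0.14 ± 0.28 in TG, with blocked limma adjusted p of 0.370 and 0.433.

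Nos1, the neuronal nitric oxide synthase (ENSMUSG00000029361, chr5:117781032-117958840, plus strand, 33 merged exons), had 2990, 2423 and 2746 normalized counts in WT input and 2122, 2322 and 1196 in WT polysome. In TG it had 2561, 2776 and 2587 in input and 1816, 2429 and 1545 in polysome. Every polysome library was below every input library in both genotypes, as for 18.5% of all genes in WT and 18.0% in TG in that direction. The log2 difference of -0.58 ± 0.24 in WT and -0.48 ± 0.24 in TG did not pass, with blocked limma adjusted p of 0.0533 and 0.0952. Medium spiny neurons and cortical neurons were not separated from interneurons, and the part of either in these values was not tested.

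The second question was whether the markers differed between TG and WT. They did not pass in either fraction, with or without the block, and limma's adjusted p was 1.00 for each member without it. Of all genes, 0.0% passed in input and in polysome. With the block, 1 gene (0.00613%) passed in polysome, Shank3 itself. At an unadjusted p under 0.05 without the block there were 0 members, 80 genes (0.490%) in input and 53 (0.325%) in polysome. Both shares are below what p-values spread evenly would give at 0.05, so 0 members there says little. In input, the log2 difference between TG and WT was 0.12 for Chat, with a 95% interval of -0.85 to 1.10. It was 0.20 (-0.54 to 0.95) for Slc5a7, 0.25 (-0.27 to 0.77) for Slc18a3 and -0.20 (-0.70 to 0.30) for Pvalb. For Sst it was -0.08 (-0.58 to 0.42), for Npy -0.01 (-0.59 to 0.58) and for Nos1 -0.04 (-0.37 to 0.29). These intervals come from the fit without the block. With the block the differences were the same and the intervals narrower, at -0.27 to 0.52 for Chat, -0.05 to 0.46 for Slc5a7, -0.04 to 0.55 for Slc18a3 and -0.53 to 0.13 for Pvalb. They were -0.38 to 0.22 for Sst, -0.39 to 0.37 for Npy and -0.30 to 0.22 for Nos1, so all 7 spanned 0 in input.

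In polysome RNA, without the block, the difference was 0.29 (-0.98 to 1.56) for Chat. The differences were 0.26 (-0.56 to 1.07) for Slc5a7, 0.12 (-0.65 to 0.89) for Slc18a3 and -0.28 (-0.80 to 0.24) for Pvalb. The intervals for Sst (-0.70 to 0.50), Npy (-0.64 to 0.58) and Nos1 (-0.57 to 0.71) lay about 0. With the block, the Slc5a7 interval was 0.01 to 0.50 and the Pvalb interval -0.53 to -0.03, which leave out 0 before adjustment, as 2.69% of all genes did at an unadjusted p under 0.05. Neither passed, with a blocked limma adjusted p of 1.00 for both. The blocked intervals spanned 0 for Chat (-0.06 to 0.64), Slc18a3 (-0.16 to 0.40), Sst (-0.44 to 0.24), Npy (-0.38 to 0.33) and Nos1 (-0.22 to 0.36). For 0 of 7 members were the TG and WT libraries without overlap. Among all genes, 1.23% were so with TG higher and 1.39% with TG lower in input, and 1.37% and 0.999% in polysome. Within the numbers, Slc18a3 in input was 1.22, 1.22 and 1.14 times WT, and Pvalb in polysome was 0.812, 0.763 and 0.902 times WT. The interaction of genotype and fraction asks whether the difference between polysome and input levels is the same in TG and WT. It called 0 members, with limma differences between -0.13 and 0.17. Of all genes it called 0.0% (94, or 0.554%, at an unadjusted p under 0.05). Markers of other cell types leaned by genotype in both fractions without a call. All 17 medium spiny markers had higher values in TG (median log2 difference 0.19 in input and 0.23 in polysome), and 10 of 11 cortical excitatory markers were lower in input (-0.24) and 9 of 11 in polysome (-0.15). Of 9 oligodendrocyte markers, 9 were higher in TG in input (0.14) and 8 in polysome (0.12). Their part in the marker differences was not tested.

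**Figure D4:**
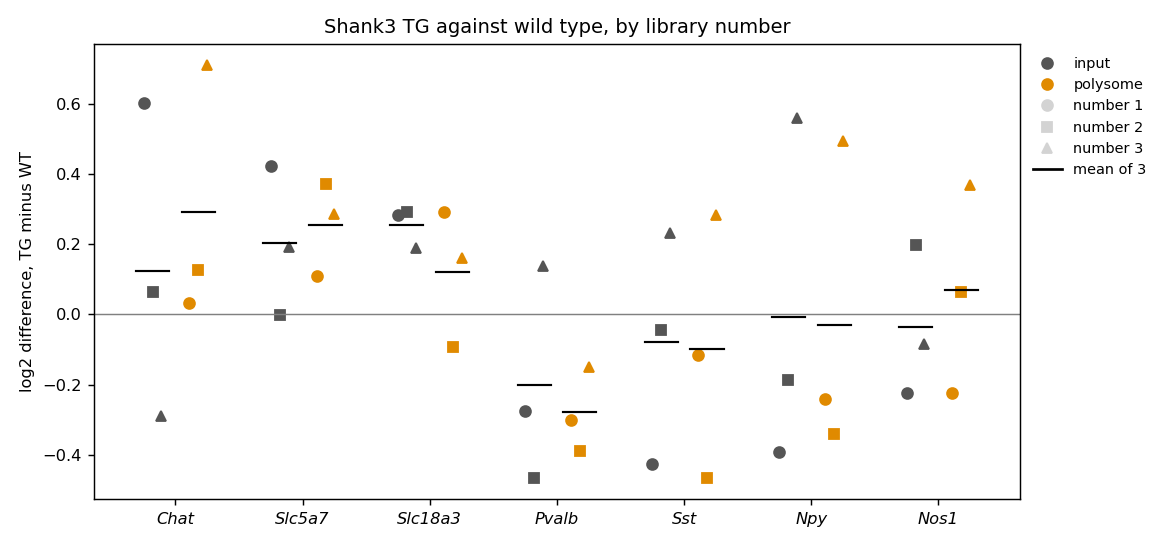
Log2 difference between TG and WT for each member by library number, in input and polysome, with the mean of 3. The points straddle 0 for most members, and all 3 numbers lie on one side for Slc18a3 in input and for Pvalb, Slc5a7 and Chat in polysome. The share of all genes with all 3 numbers on one side was not computed.

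The members also varied with library number. Across the 12 libraries, as deviations from the 4 group means, the 3 cholinergic genes had Pearson correlations of 0.88 to 0.91 with one another, and Sst with Npy 0.96. Each cholinergic gene was above its group mean in library 2 of all 4 groups (Chat by 0.71 to 0.96 on the log2 scale). Sst and Npy were below theirs in library 2 of all 4 groups. The cholinergic genes against Sst and Npy ranged from -0.68 to -0.43, and against Pvalb from -0.79 to -0.64. Nos1, a marker of the same class as Sst and Npy, had 0.51 to 0.69 with the cholinergic genes and -0.50 to -0.43 with Sst and Npy. These are descriptions over 12 libraries, with no p, and the labels do not say what the library numbers stand for.

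Over the same libraries, medium spiny markers summed to 629892 to 740154 in the libraries numbered 2 and to 308949 to 421513 in the others. The cortical excitatory markers summed to 31543 to 55203 in those numbered 2 and to 64850 to 138585 in the others, and Slc17a7, a cortical glutamate transporter, ran from 22905 to 122010. The oligodendrocyte markers summed to 397939 to 476292 in the libraries numbered 2 and to 273833 to 318466 in the others. The part of this in the marker differences was not tested.

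**Figure D5:**
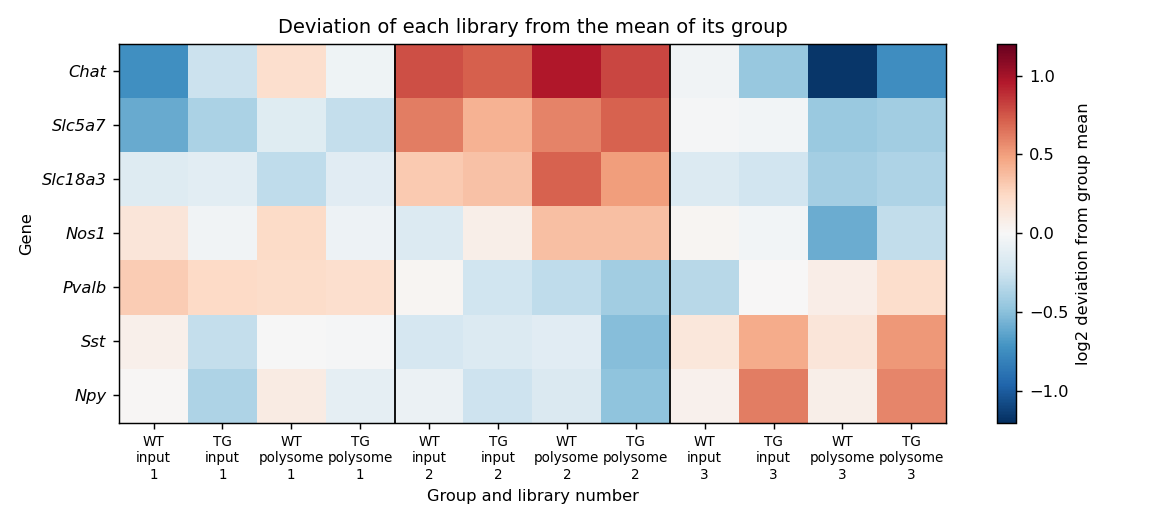
Deviation of each member from its group mean on the log2 scale, by library number and group. The cholinergic genes are above the mean in number 2 of all 4 groups, and Sst and Npy are below it there and above it in number 3.

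By likeness of those deviations, the genes nearest to Chat were Arhgef3, Lancl1 and Sept2 (0.976 to 0.986), nearest to Slc5a7 were Ano3, Slc4a4 and Sgk1 (0.980 to 0.982), and nearest to Slc18a3 were Asic4, Tprn and Tut1 (0.983 to 0.992). Sst was nearest to Adrb1, Tgfb3 and Kcnmb4 (0.972 to 0.983) and Npy to Adam15, Grpr and Mest (0.970 to 0.971). Pvalb was nearest to Stradb, Ifit1bl1 and Yaf2 (0.949 to 0.973), and Nos1 to Dhx37, Rnf123 and Sars2 (0.959 to 0.974). These were the highest of 13184 genes over 12 libraries, so high values are there by choice.

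Genes around the members gave few calls between fractions without the block. Over all genes, 14.0% were called in WT and 18.1% in TG without the block, and 29.8% and 33.2% with it. Of 7 other cholinergic interneuron markers, 0 were called in either genotype without the block, and 1 higher and 1 lower with it. Without the block, 0 were also called of 8 parvalbumin, 7 somatostatin and NOS1 and 8 other interneuron markers. With it, 1 parvalbumin marker was lower in each genotype. Of the somatostatin and NOS1 markers 1 was higher in each genotype and 1 lower in WT, and of the other interneuron markers 2 were higher and 1 lower in each. Among 18 genes of acetylcholine breakdown and receptors, 1 was called, Chrna3, a nicotinic receptor subunit, lower in TG polysome, at -1.25 ± 0.31 (limma adjusted p 0.018). The blocked counts for that list were 1 higher and 2 lower in WT and 3 lower in TG. Among 8 receptors for somatostatin and neuropeptide Y, Npy5r was lower in polysome RNA in both genotypes, at -0.76 ± 0.18 in WT and -0.61 ± 0.18 in TG (limma adjusted p 0.0177 and 0.0338). The block gave 1 higher and 3 lower there in WT, and 1 higher and 2 lower in TG.

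In nitric oxide signalling, a list of proteins that regulate or bind the synthase and of cGMP enzymes and kinases, 2 of 15 genes were lower in WT and 5 of 15 in TG, with none higher and list medians of -0.50 and -0.60 against 0.026 and 0.030 over all genes. With the block 8 of 15 were lower in each genotype. Over all genes, without the block, 8.59% were called lower and 5.36% higher in WT, and 9.86% lower and 8.19% higher in TG. With the block the shares were 15.9% lower and 13.9% higher in WT, and 16.6% lower and 16.7% higher in TG. These shares also stand beside the counts of the lists that follow. Prkg2, a cGMP-dependent protein kinase, had -1.04 ± 0.24 in WT, and Nos1ap, which binds the synthase, had -0.94 ± 0.19 in TG. Of 12 genes of neuropeptide processing, 3 were lower in each genotype and 1 was higher in TG. Blocked, 1 was higher in each genotype, and 4 were lower in WT and 5 in TG. Chga, a granule protein, had -1.34 ± 0.35 in WT and -1.46 ± 0.35 in TG. The one higher in TG was Scg5, a chaperone of prohormone convertase, at 0.51 ± 0.15. In WT the one higher with the block was Furin, a proprotein convertase named here after its value was seen (0.65 ± 0.28 without the block, blocked limma adjusted p 0.0187). In the general GABAergic list, 2 of 9 genes were lower in each genotype, with Gad1, a glutamate decarboxylase, at -1.04 ± 0.30 and -1.08 ± 0.30. The blocked fit called 1 of the 9 higher in each genotype, and 3 lower in WT and 2 in TG. No gene of any of these lists was called between TG and WT.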

How the data were processed

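The deposited table holds normalized estimated counts per gene (a signal, not whole reads) for 12 libraries: 3 each of WT and TG input and polysome. Per the submitters' processing notes, the authors worked on GRCm38 with DESeq2 1.26.0, R 3.6.2 and Salmon 1.1.0; neither the annotation nor the strand setting is given there or in the labels. The library kit marks strand, per the labels' protocols. Whole reads could not be recovered: 32.3% to 45.9% of values of at most 20 reads were within 0.1 of whole.

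Values were taken as log2(value + 1) and tested in limma 3.58.1 (R 4.3.3; variance trend, two-sided, Benjamini-Hochberg over all genes tested, threshold 0.05), keeping genes with 10 or more in at least 3 fitted libraries. A fold on this scale understates the change of low genes. TG against WT used the 6 libraries of a fraction; polysome against input and the interaction used all 12. The script was tested on simulated data. Gene positions came from GENCODE M21 (21465 of 21492 identifiers matched), and promoters from RefSeq.

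Deviations from group means correlated at 0.24 to 0.55 in the 18 same-numbered pairs of libraries between groups and at -0.41 to -0.00088 in the 36 others, so the numbers were taken to pair the libraries; their meaning is not in the labels. The block was the number, or the number within genotype in the fits of both fractions. Alternatives were the pseudocount, the filter, TMM scaling, no variance trend, the replicate block, the samples fitted and each library left out.

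The members and lists were chosen with earlier results of these data known. Named genes were the members, Shank3, the called list gene with the largest rise and fall in each comparison, and the 3 genes most like each member; 1 list gene that the rule names is not reported here. The cholinergic ratios were chosen after the values were seen and were not tested.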

Additional observations from a re-analysis of the deposited data

How the results depend on the processing

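The replicate block changed the calls between polysome and input. In WT, members called went from 0 to 3 and genes from 2367 to 5052. In TG, members went from 0 to 2 and genes from 3062 to 5638. For TG against WT in polysome, genes called went from 0 to 1, and the block changed no other call of a member. With the block and all libraries of 1 number left out, an alternative chosen after seeing the data, members called in WT were 2, 0 and 2 without numbers 1, 2 and 3, and in TG 1, 1 and 2. Genes called were 375 (WT) and 1321 (TG) without number 2 and 3669 (WT) without number 3. Fitted on the 6 TG libraries alone, 1700 genes were called. These fits used fewer libraries, and the cause of the changes in count was not tested.

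With 1 library left out, genes called between fractions ranged from 648 to 2566 in WT and from 1205 to 3263 in TG. The WT count was 1375 and 648 without WT input 2 and 3, and 1288 and 812 without WT polysome 2 and 3. The TG count was 1552 and 1340 without TG input 2 and 3, and 1358 and 1205 without TG polysome 1 and 3. Members called in TG ranged from 0 to 1. Genes called between genotypes ranged from 0 to 1 in each fraction, and for the interaction from 0 to 2.

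Differences that changed sign with 1 library left out had these ranges (log2). TG against WT in input: Chat -0.24 to 0.51, Slc5a7 -0.10 to 0.51, Sst -0.30 to 0.063, Npy -0.32 to 0.18 and Nos1 -0.12 to 0.033. In polysome: Chat -0.29 to 0.77, Slc5a7 -0.10 to 0.55, Slc18a3 -0.13 to 0.48, Sst -0.36 to 0.15, Npy -0.32 to 0.21 and Nos1 -0.23 to 0.25. Interaction: Chat -0.42 to 0.65, Slc5a7 -0.30 to 0.35, Slc18a3 -0.38 to 0.22, Pvalb -0.23 to 0.13, Sst -0.28 to 0.23, Npy -0.32 to 0.29 and Nos1 -0.19 to 0.29. Polysome against input in TG: Npy -0.16 to 0.44. No member changed sign under the other pseudocounts, filters, scaling, trend setting, block or sample choice. With 3 libraries a group, the size of difference that could be told from 0 depended on the block. For TG against WT in polysome, the SE for Chat was 0.553 without it and 0.157 with it, and for Slc5a7 0.354 and 0.111.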

Other observations

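Some markers of glia were also called between the fractions. Shares over all genes without the block were 5.36% higher and 8.59% lower in WT, and 8.19% and 9.86% in TG. With the block they were 13.9% higher and 15.9% lower in WT, and 16.7% and 16.6% in TG. Slc1a3, the astrocyte glutamate transporter, was lower in polysome RNA in both genotypes, as 1 of 2 called among 9 astrocyte markers in each. Its log2 difference was -1.08 ± 0.20 in WT and -1.09 ± 0.20 in TG (limma adjusted p 0.00738 and 0.00588). With the block, 1 astrocyte marker was higher and 2 were lower in WT, and 1 was higher and 3 were lower in TG. Mog, a myelin protein of oligodendrocytes, was higher at 1.01 ± 0.20 and 1.09 ± 0.20 (limma adjusted p 0.00853 and 0.0052), the only one of 9 called without the block (3 higher with it in each genotype, 1 lower in WT and 2 in TG). Of 9 microglial markers, 3 were higher in TG polysome, led by C1qa, a complement subunit, at 0.82 ± 0.24 (limma adjusted p 0.0331), and 0 passed in WT, with 4 at an unadjusted p under 0.05. The block gave 4 higher in WT and 5 in TG. Of 8 endothelial and mural markers, 1 was called higher and 0 lower in TG, and 0 were called in WT. It was Cldn5, a tight-junction protein of endothelium, at 1.05 ± 0.29 in TG polysome against TG input (limma adjusted p 0.0278). List medians were 0.039 in WT and 0.061 in TG. Blocked, 1 was higher and 0 lower in each genotype. Of 11 cortical excitatory markers, 0 were higher and 1 lower in WT polysome than in WT input, and 1 was higher and 1 lower in TG. The one higher in TG was Rorb, at 0.64 ± 0.20 (limma adjusted p 0.0412). List medians were -0.10 in WT and -0.036 in TG. Blocked, 2 were higher and 2 lower in WT, and 4 higher and 1 lower in TG. The 17 medium spiny markers gave 0 calls in each genotype in limma's unblocked test, and 2 of them had an unadjusted p under 0.05. Blocked, 4 were higher and 3 lower in WT, and 6 higher and 4 lower in TG. Whether any of these differed between TG and WT was tested by the interaction, which called none of them.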
